A study of Homo sapiens with 8 samples.

Results

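The cytosolic ribosomal protein genes were taken from the table of mRNA ratios by symbol: the RPL and RPS genes with a number, the stalk genes RPLP0, RPLP1 and RPLP2, and RPSA. The rule left out the RPS6K kinases and found 79 genes of 9245 rows, 48 of the large (60S) and 31 of the small (40S) subunit. Among them were 5 paralogue genes (RPL7L1, RPL22L1, RPL26L1, RPL39L and RPS27L), and further symbols that match the rule, RPL10L, RPL17, RPL36A and RPL3L among them, were not analysed here. The study asked how mRNA levels of SK-BR-3, an established HER2-amplified human breast cancer line, change once the microRNA genes mir-141, mir-200c or both have been knocked out with TALENs, which are designed nucleases. Its 8 libraries of poly(A)-selected RNA formed 2 experimental sets, each with 1 mir-141 knockout, 1 mir-200c knockout, 1 double knockout and 1 wild type. The knockouts of set 1 were clones 23 (mir-141), 11 (mir-200c) and 55 (both), and those of set 2 were clones 10, 29 and 61. Every knockout library is therefore a single clone, and within a set genotype and clone cannot be told apart.

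Ribosomal proteins coat the rRNA of both subunits and are made in matched amounts, and most cells keep their mRNAs among the most abundant. The mRNAs begin with a tract of pyrimidines, the TOP motif, through which TOR signalling and LARP1 hold their translation together. Several ribosomal proteins also act outside the ribosome: RPL5 and RPL11, for example, bind and inhibit MDM2 when ribosome assembly fails. The removed microRNAs are members of the mir-200 family, whose best-known targets are transcription factors that drive epithelial cells to a mesenchymal state.

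The mature microRNAs are printed because the sites searched in the ribosomal mRNAs follow from them. They were taken from RefSeq (GRCh38.p14), with the seed, bases 2 to 8, in capitals. Both lie on the plus strand, hsa-miR-200c-3p at chr12:6963742-6963764 and hsa-miR-141-3p at chr12:6964155-6964176, and their seeds differ at 1 base.
hsa-miR-200c-3p: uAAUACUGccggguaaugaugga
hsa-miR-141-3p: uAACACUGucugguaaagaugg

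Sites complementary to a whole seed were rare in the ribosomal genes. The search used the 3′ UTR of 1 protein-coding transcript per gene in GENCODE release 29, chosen by its rank in the annotation and not by length. Of the 79 genes, 10 had a site for mir-141-3p and 6 for mir-200c-3p. A site for at least 1 of them was found in 15 ribosomal genes (19%), against 28.3% of the 9219 rows that could be annotated. The 3′ UTRs of the 79 genes were short, with a median of 94 bases against 995 for the annotated rows. The 64 ribosomal genes without a site had a median of 67 bases. Several sites lay in long annotated ends, such as that of RPL37 (7242 bases). The mir-141 site of RPS20 was left out when site positions were listed, so its distance from the coding sequence is not given. Among the sites listed, 5 start within the first 300 bases of the 3′ UTR, each in a different gene. They are shown with the 7 matching bases in capitals, as the listed sites nearest to the coding sequence. This distance was chosen after the values had been seen. RPLP1 is an acidic protein of the stalk, RPS23 lies at the decoding centre, RPL23 is a 60S protein that can also bind MDM2, and RPL22L1 is a paralogue of RPL22.
RPL11, mir-200c site: gattggatgcCAGTATTtcctggcaga
RPL22L1, mir-200c site: taactatcaaCAGTATTtaaatagctt
RPLP1, mir-141 site: cctcatggtaCAGTGTTgaaaactgca
RPL23, mir-141 site: caggcctctaCAGTGTTtttgacatac
RPS23, mir-200c site: aataaatgtgCAGTATTgtagtattac

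Genes with such a site had log2 ratios close to those of genes without. In the set 1 clones lacking mir-141, mir-200c and both, the 15 ribosomal genes with a site had medians of 0.02, 0.07 and −0.00, and the 64 without had 0.01, 0.00 and −0.03. By microRNA, the 10 with a mir-141 site had 0.01, 0.10 and 0.05, and the 6 with a mir-200c site had 0.05, −0.02 and −0.04. Over all annotated rows the medians were −0.00, 0.00 and 0.02 with a site of either kind and −0.01, −0.02 and −0.05 without. Of the genes with a mir-200c site shown, RPL11 was below 0 in all of these clones at −0.19, −0.31 and −0.18, and RPL22L1 had 0.27, −0.10 and −0.08. RPS23, which has sites for both microRNAs, had 0.19, 0.35 and 0.24. Of those with a mir-141 site shown, RPLP1 had 0.07, 0.13 and 0.03, and RPL23 had −0.09, −0.08 and −0.05. The values thus lay on both sides of the wild type. With 1 clone per genotype in a set, these differences were not tested.

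Each value is a log2 ratio of a clone to the wild type sequenced in its set, so the wild type stands at 0 and the 3 clones of a set share its error. The mean over all rows lay within 0.0001 of 0 in every column, so 0 is also the level of the average row. A change shared by all rows would not show. Near, above or below the wild type therefore means relative to the average row throughout. Expression levels, counts and depth are unknown, and levels of different genes could not be set side by side. Ribosomal protein genes have many processed pseudogenes: 74 of the 79 have at least 1 named after them in GENCODE, 1091 in all, with a median of 8 per gene and 91 for RPL23A. The sources used here do not say how reads that match such copies were counted, and each ribosomal value is uncertain in that respect. In bulk RNA, a shift in every cell and a shift in the share of cells that carry an mRNA cannot be told apart. Neither microRNA was analysed here, so its loss was not checked. Set 1 was read first. Between the sets the ratios were unrelated across all rows (Pearson r from −0.00224 to 0.0105 over 9 pairs of clones) and across the 79 ribosomal genes (−0.18 to 0.02), so a set 2 value may belong to another gene than the symbol it is listed beside. Whether it does was not tested; set 2 values are given below as listed, and every fit over both sets may combine values of different genes under 1 symbol. The 6 luminal and SK-BR-3 markers measured, ERBB2 and EPCAM among them, lay between −0.24 and 0.24 in the clones of set 1. Of the fibroblast markers 1 of 5 was measured and of the blood cell markers 3 of 5, with ratios from −0.54 to 1.05; their part in the results was not tested.

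As a class the ribosomal protein mRNAs of set 1 stayed near the average row and close to each other. Their medians were 0.01, 0.00 and −0.03 in the clones lacking mir-141, mir-200c and both, against −0.01, −0.02 and −0.03 over all rows. The SD across the 79 genes was 0.117 in the mir-141 knockout, against 0.307 over all rows. In the double knockout it was 0.165, against 0.397, and in the mir-200c knockout 0.285, against 0.431. The ribosomal spread was thus 0.381 of that of all rows in the mir-141, 0.416 in the double and 0.661 in the mir-200c knockout. With a scaled median absolute deviation, which a few far values move little, it was 0.633 (0.124 against 0.196) in the mir-141, 0.433 (0.12 against 0.277) in the double and 0.595 (0.201 against 0.338) in the mir-200c knockout. The order of the clones thus depended on the measure, and the ribosomal spread was the smaller one in each of them under both. No ribosomal gene reached a log2 ratio of 0.5 in either direction in the mir-141 knockout, where 6.18% of all rows did, or in the double knockout, where 12.4% did. In the mir-200c knockout 6 of 79 did, against 17% of all rows. Within 0.25 of the wild type lay 75, 49 and 67 of the 79 genes in the clones lacking mir-141, mir-200c and both, that is 94.9%, 62% and 84.8%, against 75.2%, 53.6% and 61.9% of all rows. Because levels are unknown, these spreads could not be compared with those of genes of equal abundance, and the part of abundance in them was not tested.

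**Figure D1:**
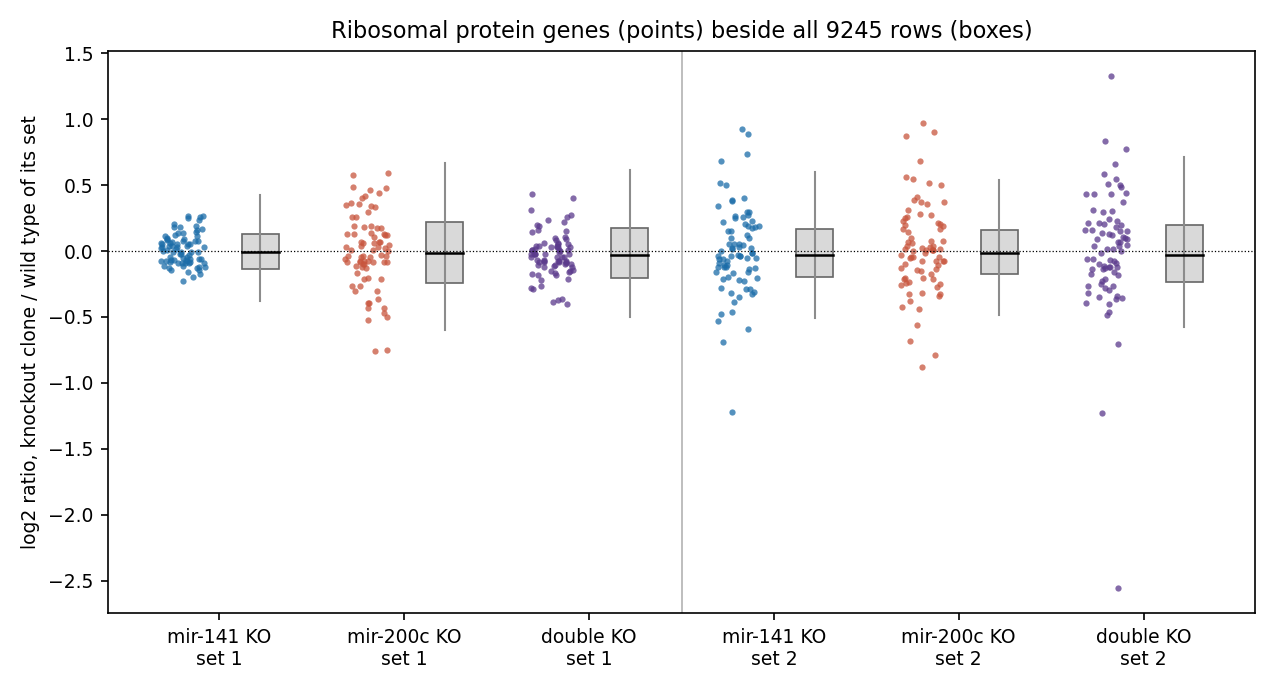
Log2 ratios of the 79 ribosomal protein genes (points, spread sideways for legibility) in each of the 6 knockout clones relative to the wild type of its own set, beside all 9245 rows (box from the 25th to the 75th percentile with the median as a black line, grey line from the 5th to the 95th). In set 1 the points are tightest in the mir-141 knockout (SD 0.117), followed by the double knockout (0.165) and the mir-200c knockout (0.285), and in set 2 their SD is 0.851 to 1.03 of that of all rows.

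In the mir-141 knockout of set 1 the ribosomal genes ran from −0.23 to 0.27. The highest were RPL22L1 (0.27), RPL22 (0.27), a 60S protein that also binds viral and cellular RNA hairpins, RPSA (0.26), RPS13 (0.25) and RPS29 (0.24). RPSA encodes a 40S protein that is also known as the laminin receptor, RPS13 is a core protein of the 40S subunit, and RPS29 is a small zinc-binding protein of the 40S head. At the low end were RPL7L1 (−0.23), RPL11 (−0.19), RPS21 (−0.17), RPL8 (−0.16), a protein next to the peptidyl transferase centre, and RPS20 (−0.15).

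In the mir-200c knockout of set 1 the same genes fanned out from −0.76 to 0.59. The 4 past −0.5, where 7.92% of all rows lay, were RPL12 (−0.76), RPS2 (−0.75), RPL29 (−0.52) and RPL41 (−0.50), and RPL7L1 came next at −0.47. RPL12 forms the base of the stalk that recruits elongation factors, RPS2 borders the mRNA entry channel, RPL29 is a basic 60S protein also found to bind heparin, and RPL41 is the shortest ribosomal protein. The 2 past 0.5, where 9.05% of all rows lay, were RPS27A (0.59) and RPS29 (0.58). RPS27A is made as a fusion with ubiquitin, which is cleaved off. RPL37 (0.48), RPS12 (0.48) and RPL27A (0.46) followed just inside the threshold, then RPS20 (0.44), RPLP2 (0.42) and RPL22 (0.40). On the low side RPS27L (−0.44), the paralogue of RPS27, and RPL32 (−0.43) were also just inside it.

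The double knockout of set 1 ran from −0.41 to 0.43. RPSA (0.43), RPS29 (0.40), RPL34 (0.31), RPL27A (0.27) and RPL37 (0.26) were highest, and RPS2 (−0.41), RPL7L1 (−0.39), RPL26L1 (−0.37), RPL12 (−0.36) and RPS24 (−0.29) were lowest. RPS24 encodes a 40S protein that is mutated in some patients with Diamond-Blackfan anaemia. The clones share a wild type, so each column is given by itself. RPL12 had −0.08, −0.76 and −0.36 in the clones lacking mir-141, mir-200c and both, RPS2 had −0.06, −0.75 and −0.41, and RPS29 had 0.24, 0.58 and 0.40. RPL41, by contrast, had −0.01 and 0.01 in the mir-141 and double knockout beside −0.50 in the mir-200c knockout. RPS20, a protein of the 40S head, was below the wild type in the mir-141 knockout (−0.15) and the double knockout (−0.26) and above it in the mir-200c knockout (0.44).

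**Figure D2:**
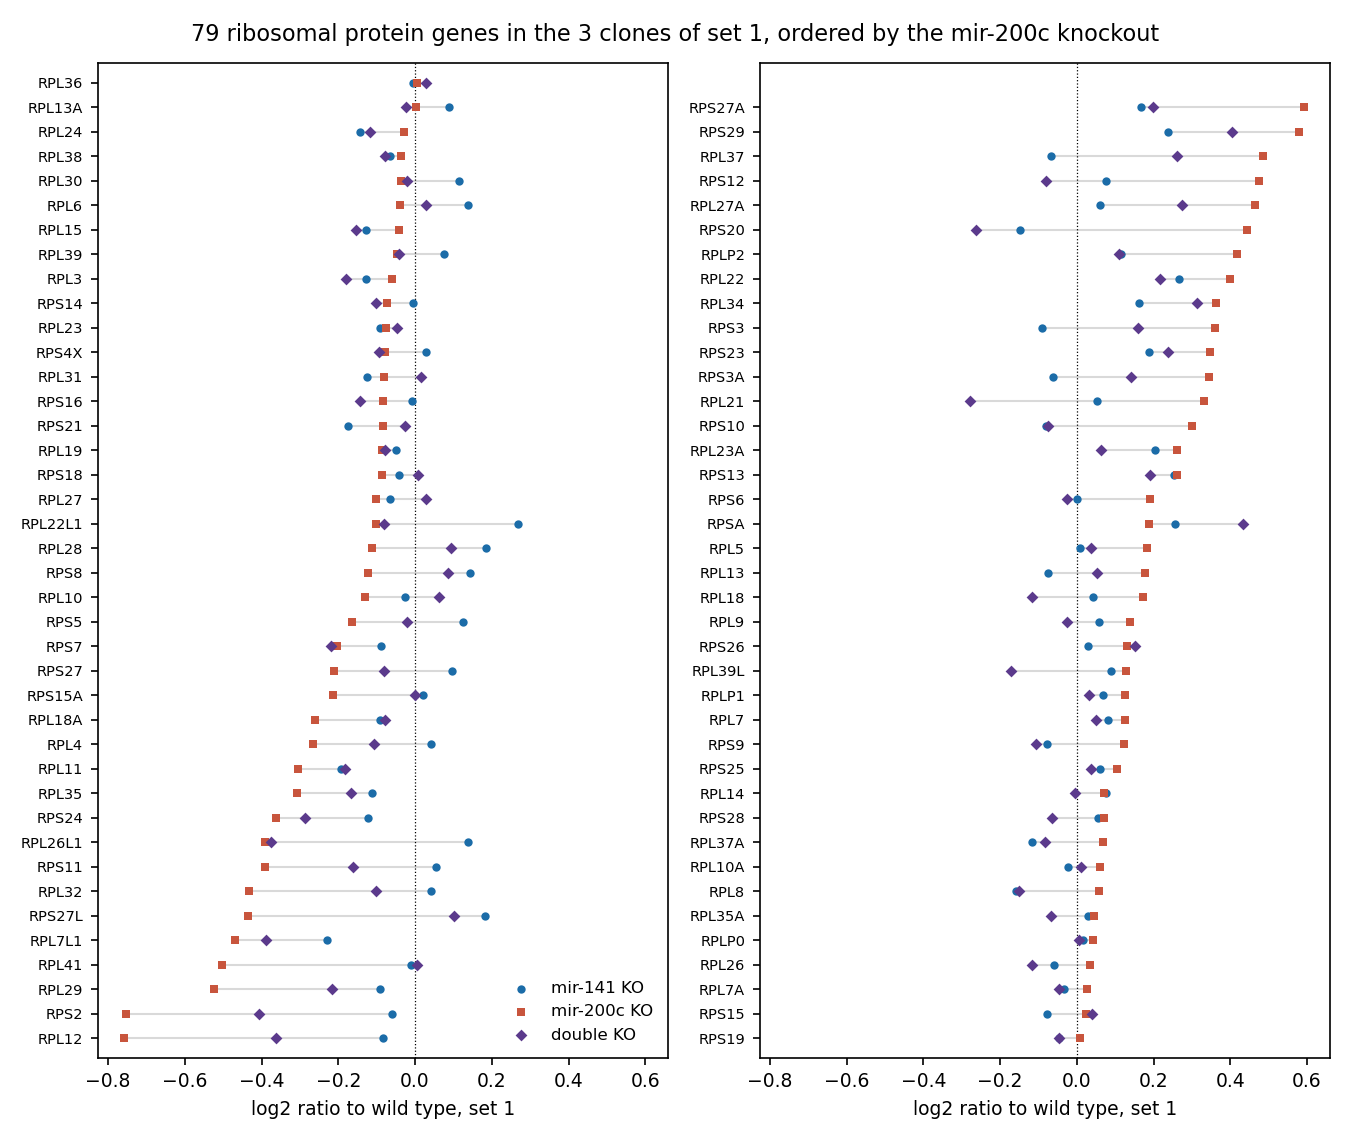
Log2 ratio to the wild type of set 1 (horizontal axis) of each of the 79 ribosomal protein genes in the clones lacking mir-141, mir-200c and both, ordered by the mir-200c knockout, with a grey line from the lowest to the highest of the 3 values. The squares of the mir-200c knockout run from −0.76 (RPL12) to 0.59 (RPS27A), and for RPL41, RPS12 and RPS20 they stand apart from the other two clones.

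Loss of mir-200c could be read a second time in set 1 from libraries that the first reading does not use, by setting the double knockout against the mir-141 knockout. The ribosomal genes spread less there, with an SD of 0.141 in the double against the mir-141 knockout and 0.285 in the mir-200c knockout against the wild type. For all rows these SDs were 0.281 and 0.431. Past 0.5 was 1 ribosomal gene, RPL26L1 at −0.51, against 6.43% of all rows. Across the 79 genes the readings correlated at a Pearson r of 0.481 (Spearman 0.406), beside 0.34 over all rows. This correlation is a description across genes, which are not independent replicates and share whatever sets a set of libraries apart.

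The genes at or past 0.25 in the same direction in both readings were few. Lower were RPL12 (−0.76 with mir-141 present, −0.28 in its absence), RPS2 (−0.75 and −0.35) and RPL26L1 (−0.39 and −0.51), 3 genes against 6.21% of all rows. Higher was RPL37 (0.48 and 0.33), a zinc-binding protein of the 60S subunit, against 6.73% of all rows. On GRCh38 these genes are RPL12 (chr9:127447674-127451405, minus strand), RPS2 (chr16:1962052-1964860, minus strand), RPL26L1 (chr5:172958729-172969771, plus strand) and RPL37 (chr5:40825262-40835335, minus strand), with RPL26L1 and RPL37 on the same chromosome. RPS27A (0.03 in the second reading) and RPL41 (0.02), which were past 0.5 in the first, stood near 0 in the second. In an additive limma model of both losses in set 1, 0 of 79 ribosomal genes and 0 of 9245 rows passed an adjusted p of 0.05. At an unadjusted p under 0.05 there were 4 ribosomal genes (RPL12, RPS2, RPL26L1 and RPL37), against 12% of all rows. RPS2 had a log2 change of −0.55 ± 0.16 (SE; limma adjusted p = 0.401) and RPL12 of −0.52 ± 0.17 (0.401). RPL26L1 had −0.45 ± 0.13 and RPL37 0.41 ± 0.13, also with a limma adjusted p of 0.401. That model has 1 residual degree of freedom before moderation across rows, the part of the ratios that is not additive. Its estimate for loss of mir-200c is the mean of the readings above, and its residual comes from their difference. The return of the same 4 genes therefore restates those readings and is no separate support. The same holds for its values for loss of mir-141 below.

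**Figure D3:**
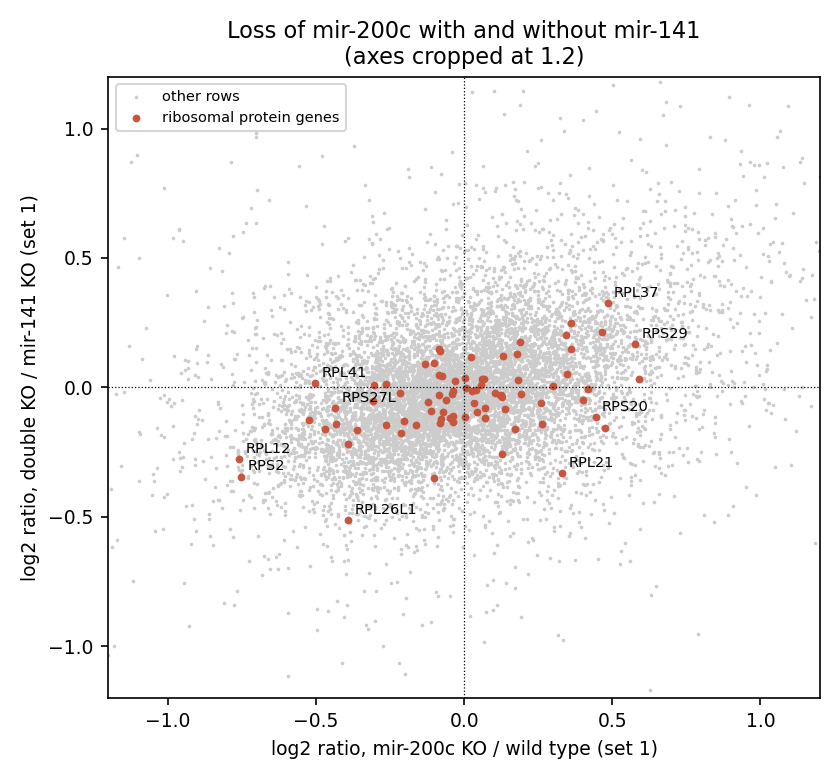
Loss of mir-200c in set 1 read in clones without mir-141 (vertical axis, log2 ratio of the double to the mir-141 knockout) and with it (horizontal axis, log2 ratio of the mir-200c knockout to the wild type), with ribosomal protein genes in red over the other rows in grey. RPL12, RPS2 and RPL26L1 lie low on both axes and RPL37 high on both, whereas RPL41 and RPS20 are off 0 on the horizontal axis and near 0 or on its other side on the vertical one; the axes are cropped at 1.2.

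Loss of mir-141 gave no such repeated genes. The double against the mir-200c knockout had 5 ribosomal genes past 0.5, against 10.8% of all rows: RPS20 (−0.71), RPL21 (−0.61) and RPS12 (−0.56) were lower in the double knockout, and RPL41 (0.51) and RPS27L (0.54) were higher. In the mir-141 knockout against the wild type the same genes had −0.15, 0.05, 0.08, −0.01 and 0.18. None of the 79 genes was past 0.25 the same way in both readings, where 3.7% of all rows were higher and 3.32% lower. The Pearson r across the 79 genes was 0.00284, beside 0.181 over all rows. The additive limma model called 0 of 79 and had 0 at an unadjusted p under 0.05, against 6.35% of all rows, with RPS27L at 0.36 ± 0.15 and RPS20 at −0.43 ± 0.18 (SE; limma adjusted p = 0.826 for both) as the nearest.

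By place in the ribosome, values of 1 group ran in both directions in set 1; the groups were chosen after the values had been seen. Of the stalk, which carries elongation factors to the ribosome, RPLP0 had 0.02, 0.04 and 0.01 in the clones lacking mir-141, mir-200c and both. RPLP2 had 0.11, 0.42 and 0.11 and stood at the opposite end from RPL12 (−0.76) in the mir-200c knockout, although both belong to this stalk. RPL5, the partner of RPL11 in the 5S particle that inhibits MDM2, had 0.01, 0.18 and 0.04, and RPL11 lay lower at −0.19, −0.31 and −0.18. Of the 7 genes around the exit of the nascent peptide, RPL22 was highest and RPL35 lowest in the mir-200c knockout (0.40 and −0.31). RPL26, a neighbour of theirs, had −0.06, 0.03 and −0.12.

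On the 40S head 10 of 13 genes were above 0 in the mir-200c knockout, with a median of 0.11, where 41 of all 79 ribosomal genes were. The same 13 genes had a median of −0.01 in the mir-141 and −0.02 in the double knockout. RPS3, which borders the mRNA entry and is also known in DNA repair, had −0.09, 0.36 and 0.16 in the clones lacking mir-141, mir-200c and both. RPS19, the gene most often mutated in Diamond-Blackfan anaemia, had −0.05, 0.01 and −0.05.

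Several well-known ribosomal genes lay close to the wild type in every clone of set 1. RPS6, the substrate of the S6 kinases, had 0.00, 0.19 and −0.03 in the clones lacking mir-141, mir-200c and both. RPS14, lost in the 5q− syndrome, had −0.01, −0.07 and −0.10, and RPL38, which in the mouse is needed for translation of Hox mRNAs, had −0.06, −0.04 and −0.08. RPL13A, which also takes part in silencing of inflammatory mRNAs, had 0.09, 0.00 and −0.02. RPL10, which joins the 60S subunit late in its maturation, had −0.03, −0.13 and 0.06.

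The paralogues differed from their core genes in several clones of set 1. RPL7L1, a nucleolar relative of RPL7, had −0.23, −0.47 and −0.39 in the clones lacking mir-141, mir-200c and both, against 0.08, 0.13 and 0.05 for RPL7, a difference of −0.31, −0.59 and −0.44. RPL22L1, which can take the place of RPL22, had 0.27, −0.10 and −0.08, against 0.27, 0.40 and 0.22 for RPL22. RPL26L1 had 0.14, −0.39 and −0.37, against −0.06, 0.03 and −0.12 for RPL26. In these 3 pairs the paralogue was below its core gene in both clones without mir-200c. RPL39L, known from the testis, had 0.09, 0.13 and −0.17, against 0.08, −0.05 and −0.04 for RPL39, and RPS27L had 0.18, −0.44 and 0.10, against 0.10, −0.21 and −0.08 for RPS27. Each difference rests on 1 clone and 1 wild type, and the paralogues hold similar sequence, so it was not tested.

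**Figure D4:**
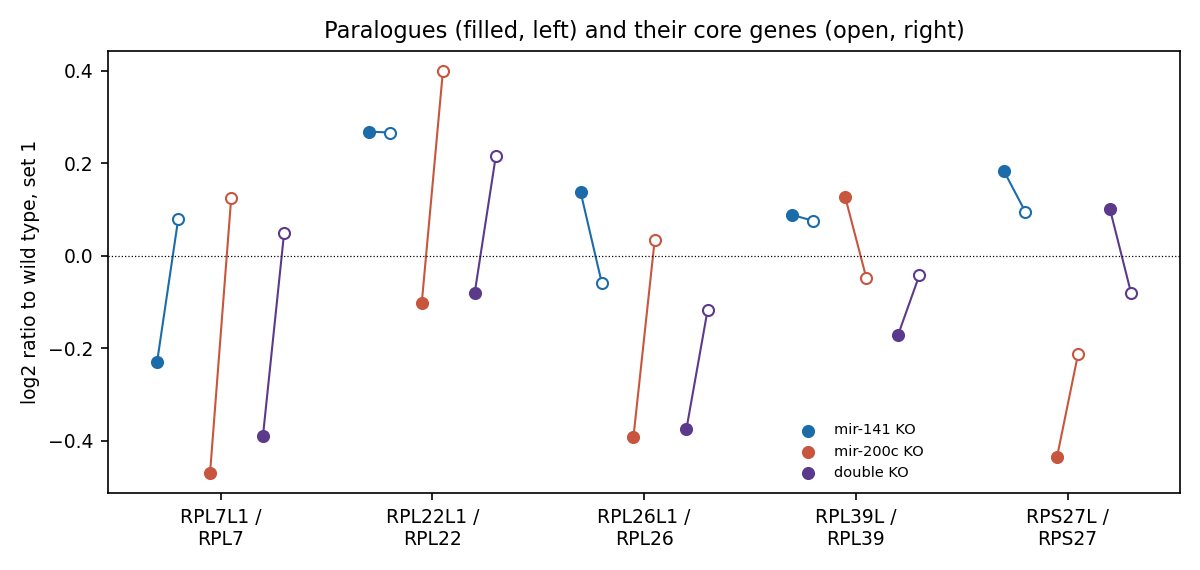
Log2 ratio to the wild type of set 1 for each of the 5 paralogues (filled, left) and its core gene (open, right), joined by a line and coloured by knockout clone. RPL7L1, RPL22L1 and RPL26L1 lie below their core genes in the mir-200c and double knockouts, by 0.59 and 0.44 on the log2 scale for RPL7L1.

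The start of the transcripts was searched for fixed motifs of C and T, not for a TOP tract as such. Among 64 ribosomal genes with a start in the RefSeq promoter table (GRCh38.p14), 38 (59.4%) held at least 1 of these motifs, which can overlap each other, on the coding strand (the other strand was not searched): the motif CTTTCC, the motif CTTCCT or the motif CTCTTT. The search ran between 40 bases before and 20 after a start, and over all 27305 genes in the table the share was 11.3%. Counted by window, it was 44 of 80 (55%), against 9.27% of 35116. The start windows of RPS12 and RPS6 hold such motifs, and those of RPL12 and RPL41 hold none of them. Directly after the 40 bases before the start, however, the windows of RPL12 and RPL41 also run on in C and T (cctctc and ctctc). The lack of a motif there is thus not the lack of a pyrimidine tract. These windows are shown because RPS12 and RPL12 stand near the opposite ends of the mir-200c knockout. Other genes went the other way: the window of RPS29, near the high end, holds none of the motifs, and that of RPS24, on the low side, holds 1. Capitals mark the matched letters. The windows are chr6:132814529-132814588 (RPS12, plus strand), chr9:19380217-19380276 (RPS6, minus strand), chr9:127451387-127451446 (RPL12, minus strand) and chr12:56116593-56116652 (RPL41, plus strand).
RPS12: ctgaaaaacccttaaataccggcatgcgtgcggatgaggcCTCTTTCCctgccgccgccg
RPS6: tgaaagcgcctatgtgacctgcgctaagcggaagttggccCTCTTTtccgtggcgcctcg
RPL12: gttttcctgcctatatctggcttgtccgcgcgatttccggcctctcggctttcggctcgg
RPL41: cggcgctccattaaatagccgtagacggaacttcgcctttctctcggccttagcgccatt

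The 38 genes with these motifs had medians of −0.00, 0.06 and −0.04 in the set 1 clones lacking mir-141, mir-200c and both, against 0.01, −0.04 and −0.02 for the 26 without. Their SDs were 0.124, 0.243 and 0.145, against 0.114, 0.298 and 0.197. A match of letters does not show that a TOP tract is used, and its absence from these windows says nothing about one.

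By SD, other mRNAs known to carry a TOP tract spread much like the ribosomal ones in set 1. The SD over 23 of them was 0.132, 0.325 and 0.168 in the clones lacking mir-141, mir-200c and both, and their medians were −0.07, −0.05 and −0.11. Their scaled median absolute deviations were 0.128, 0.363 and 0.141, beside 0.124, 0.201 and 0.12 for the ribosomal genes. By that measure they spread more widely than the ribosomal genes in the mir-200c knockout. EEF1A1, the elongation factor that delivers tRNA, had 0.09, 0.53 and 0.14, whereas the initiation factor subunits EIF3L (−0.12, −0.61 and −0.43) and EIF3E (−0.34, −0.61 and −0.41) were on the low side. EEF2, the translocation factor, had −0.25, −0.23 and −0.20. NPM1, a nucleolar chaperone of ribosome assembly, had −0.24, −0.07 and −0.31. FAU, whose ribosomal protein is fused to a relative of ubiquitin, had 0.00, −0.26 and −0.07. RPL36AL, a ribosomal gene whose symbol the rule does not match, had 0.08, 0.22 and 0.12. MYC was not analysed here.

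Genes that build ribosomes had lower medians than the ribosomal genes themselves in set 1. The 58 biogenesis factors had medians of −0.10, −0.15 and −0.12 in the clones lacking mir-141, mir-200c and both. Their SDs were 0.161, 0.263 and 0.201, beside 0.117, 0.285 and 0.165 for the ribosomal genes. The 16 genes of RNA polymerase I and its factors had medians of −0.08, −0.06 and −0.07. Among these 16, PTRF, which encodes a transcript release factor better known as the caveolar protein cavin, had 0.90, 1.22 and 1.88. The 75 mitochondrial ribosomal protein genes also had lower medians than the cytosolic ones, at −0.09, −0.16 and −0.20 and SDs of 0.185, 0.289 and 0.238. For 36 proteasome subunit genes the SDs were 0.211, 0.434 and 0.219, with PSMB8 highest in each clone at 0.88, 1.97 and 0.78. Their scaled median absolute deviations were 0.143, 0.242 and 0.186, beside 0.124, 0.201 and 0.12 for the cytosolic ribosomal genes. The 24 genes of TOR signalling and translation control had medians of 0.07, −0.12 and −0.06. In none of the 8 limma comparisons did a gene of these lists pass the threshold. In the additive model of set 1, loss of mir-200c had 5 of the 58 biogenesis factors at an unadjusted p under 0.05. These were lower and 0 were higher. The 12% of all rows given above counts both directions, and the share in each direction was not computed.

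**Figure D5:**
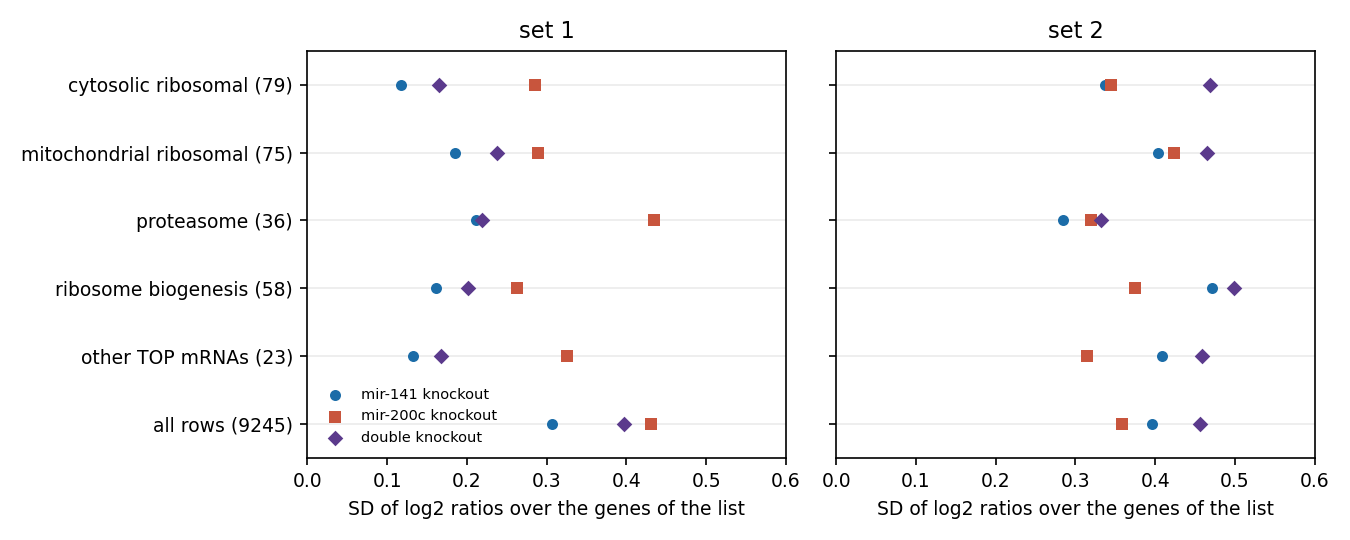
SD of the log2 ratios over the genes of each list (number of genes in brackets) in the clones lacking mir-141, mir-200c and both in set 1 (left) and set 2 (right). The cytosolic ribosomal genes lie at 0.117, 0.285 and 0.165 in set 1, to the left of all rows (0.307, 0.431 and 0.397), and at 0.337, 0.345 and 0.469 in set 2, beside all rows (0.396, 0.358 and 0.456).

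In set 2, as listed beside their symbols, the ribosomal genes were spread about as widely as the rows in general. The SD was 0.337, 0.345 and 0.469 in the clones lacking mir-141, mir-200c and both, which is 0.851, 0.964 and 1.03 of that of all rows. With a scaled median absolute deviation the ribosomal spread was 1, 1.24 and 0.894 of that of all rows. By that measure it was the wider one in the mir-200c knockout (0.308 against 0.248). Past 0.5 were 9, 12 and 11 of the 79 genes, against 12.6%, 10.4% and 16.6% of all rows. Medians were −0.03, 0.01 and 0.03. RPS18, a protein of the 40S head, was listed at −0.59, −0.79 and −2.55 in the set 2 clones lacking mir-141, mir-200c and both, and in set 1 at −0.04, −0.09 and 0.01. RPL11 was listed at 0.34, 0.97 and 1.33 in set 2, above the wild type where the clones of set 1 were below it. RPL9 was listed at −1.22, −0.88 and −1.23 and RPS19 at 0.89, 0.90 and 0.66. RPL12 and RPS2, the lowest of set 1, were listed at 0.05, 0.04 and 0.21 and at −0.17, −0.34 and −0.01.

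With both sets in limma, blocked by set, no ribosomal gene passed an adjusted p of 0.05 in any of 6 comparisons, and neither did any of the 9245 rows. At an unadjusted p under 0.05, knockout of mir-141 had 0 ribosomal genes (2.68% of all rows), knockout of mir-200c had 3 (5.4%) and the double knockout had 1 (6.28%). The 3 of the mir-200c knockout were RPS2 (−0.55 ± 0.19, SE), RPL41 (−0.59 ± 0.21) and RPS10 (0.49 ± 0.18), all with a limma adjusted p of 0.793. RPS18 in the double knockout had a log2 change of −1.27 ± 0.54 (SE, limma adjusted p = 0.740). Its log2 ratio in the double knockout of set 1 was 0.01.

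Averaged over both backgrounds and sets, loss of mir-200c had 2 ribosomal genes at an unadjusted p under 0.05 (8.88% of all rows), RPS3A at 0.31 ± 0.10 and RPL29 at −0.26 ± 0.11 (SE; limma adjusted p = 0.541 and 0.554). Loss of mir-141 had 1 (5.15%), again RPS3A, at −0.27 ± 0.10 with a limma adjusted p of 0.901. RPS3A is a 40S protein of the platform. The interaction of both losses had 1 (1.7%), RPL41 at 0.96 ± 0.29 with a limma adjusted p of 1.00. These values combine sets whose ratios are unrelated across rows, with the doubt about the symbols of set 2 given above. Each share of ribosomal genes was below that of all rows, for the interaction only slightly (1.27% against 1.7%). The counts are small, and no deficit of ribosomal genes is read from them.

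Sequence features of the ribosomal mRNAs went with the ratios weakly. Spearman's rho between GC content and the log2 ratio over the 79 genes was −0.24, −0.226 and −0.222 in the set 1 clones lacking mir-141, mir-200c and both, beside 0.0286, 0.0131 and 0.0193 over 9219 rows. The 3 ribosomal values share a wild type. For transcript length rho over the 79 genes was 0.05, 0.17 and 0.15, and for the number of named pseudogenes 0.02, 0.17 and 0.07. The part of GC content in the results above was not tested.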

How the data were processed

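Poly(A)-selected RNA of SK-BR-3 cells was fragmented, ligated to adaptors and sequenced on an Illumina HiSeq, per the labels' protocols. The submitters' processing notes name TopHat2 and GRCh37.p10; its version and the counting, scaling and filtering are not given in the sources used here. In all 6 columns, the authors deposited log2 ratios, 1 column for each clone against the wild type sequenced with it, over 9245 rows, without levels or counts. Columns of samples outside the series numbered 0.

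Each wild type was set to 0 and models over all rows were run in limma 3.58.1 (R 4.3.3): the 4 groups with the set as a block (3 residual degrees of freedom), both losses with the set (4), and both losses in set 1 (1). The labels name the shared set, which pairs the libraries. Calls needed a Benjamini-Hochberg adjusted p below 0.05 over all rows; the fits were tested on simulated data. In the fits over both sets, p-values measure the spread between these libraries. In the fit to set 1 they rest on the part of the ratios that is not additive, moderated across rows, and not on a spread between replicates. A log2 ratio of 0.5 served for single clones and 0.25 for readings in both backgrounds.

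The ribosomal genes and all lists were chosen with earlier results of these data known. Named were the 5 highest and 5 lowest ribosomal genes of each clone of set 1, the paralogues and well-known genes listed by name; others were picked after their values were seen. Rows were matched to GENCODE release 29 (GRCh38) by RefSeq accession or symbol. Alternatives were median centring, robust moderation, 1 row per symbol, no paralogues, no block and leaving out each library.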

Additional observations from a re-analysis of the deposited data

How the results depend on the processing

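The count of 0 ribosomal genes called by limma held in all 88 alternatives over 8 comparisons: median centring, robust moderation, 1 row per symbol, no paralogues, the fit with no replicate block (0 called) for both sets, leaving out each library, and 2 fits to set 2 alone, chosen after seeing the data. In 81 of them 0 rows were called in all, with 2 at most in the others. Ribosomal genes at an unadjusted p under 0.05 numbered 0 to 7, except for a highest count of 12 in the fits to set 2 alone, and the smallest limma adjusted p of any was 0.124, without the first double knockout. Without replicate 1, that is in the clone of set 2, the clones lacking mir-141, mir-200c and both had medians of −0.0338, 0.0066 and 0.0346 and SDs of 0.337, 0.345 and 0.469. In the mir-200c knockout of set 1 the median was 0.0212 after median centring and 0.0155 without paralogues, and its SD was 0.201 as a scaled median absolute deviation and 0.241 without the 5 farthest genes, an alternative chosen after seeing the data; the cause was not tested. The other alternatives for medians and SDs moved less than the sets differed. Depth is unknown and limits what can be said of any single gene, and no filter on low values could be applied. Leaving out a library of set 1 alone leaves its model no residual degrees of freedom.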
